A study of Mus musculus with 51 samples.

Results

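The comparison of *Eomes*/*T* double KO (dKO) with *Eomes* KO cells on day 3 of differentiation measured what was different once *T* was removed from cells that already lacked *Eomes*. It used 2 of the 51 samples of the series (18 of them RNA), 1 for each line, chosen by their labels. The cells were F1G4 mouse embryonic stem cells (mESCs), freed of feeder cells, aggregated and kept on fibronectin in medium with 20 ng/ml Bmp4, which starts differentiation towards mesoderm. The *Eomes* KO line was a clone in which a Cas9 nickase with paired guides had removed the promoter and first exon of *Eomes*. The dKO line was made from the *Eomes* KO cells by the same kind of deletion at *T*, so that both groups share the *Eomes* deletion and differ by the *T* deletion and by a further round of cloning. The WT and *T* KO cells named for orientation are unedited F1G4 cells and F1G4 cells with the deletion at *T* alone. A yardstick also used WT cells of the *Smad4* line, which carry conditional *Smad4* alleles with the first exon flanked by loxP sites. The labels list 2 F1G4 WT samples per stage, for which the tables hold a single column. They list 1 sample per KO line and day, and likewise for WT cells of the *Smad4* line. Each group is thus a single deposited value per gene, with no replicate spread and no test, and the *T* deletion, the clone and the library cannot be told apart. The cells were measured in bulk, where fewer cells of a type and less RNA per cell cannot be told apart either.

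Eomes and T (Brachyury) are T-box transcription factors that are switched on in the primitive streak, the site where cells leave the epiblast and become mesoderm and endoderm. Nodal signalling, together with BMP, Wnt and FGF signals, turns them on, and they in turn activate genes of the streak and of nascent mesoderm, such as *Mesp1*, which marks the earliest heart progenitors. Lefty proteins are secreted inhibitors that Nodal signalling itself induces, and Tdgf1 (Cripto) is the coreceptor that Nodal needs.

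RNA was measured as FPKM, fragments per kilobase of transcript, scaled for library size, for 24538 genes. The values of the *Eomes* KO table were divided by 1.04 and those of the dKO table by 1.04, the ratios of their WT columns to the WT time course. A gene was examined when it stood above FPKM 1 in either line, and called lower or higher in dKO cells when the log2 ratio of FPKM passed −1 or 1, which is a 2-fold difference. Low values fall on multiples of a smallest step, as whole fragments give. For a gene of equal length that step was 1.21 times as large in the dKO as in the *Eomes* KO column. The WT ratios differ from 1 for the same WT samples, so the scaling was not by mapped fragments alone. The step therefore does not settle which library was deeper. Under scaling by mapped fragments the step would correspond to 24.4 in the *Eomes* KO and 20.2 in the dKO column, in units of 1e6 fragments. Of low protein-coding genes, 64.5% and 66.1% were within 0.1 of a whole fragment.

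*T* itself was the first check. The sequence shown is the DNA just upstream of the annotated start of *T*, the gene that the second deletion targeted (chr17:8434173-8434422, plus strand, RefSeq GRCm38.p6, the 250 bases before the start). It holds neither the T-box site TCACACC nor the Tcf/Lef core ATCAAAG on either strand, and is therefore in lower case throughout. Only these exact letters were searched, so variants of either site would not be marked.
T upstream: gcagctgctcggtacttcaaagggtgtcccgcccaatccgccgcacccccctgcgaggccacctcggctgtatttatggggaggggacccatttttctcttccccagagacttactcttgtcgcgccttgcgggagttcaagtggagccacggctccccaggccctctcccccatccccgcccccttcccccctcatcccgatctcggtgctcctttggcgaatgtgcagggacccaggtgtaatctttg

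FPKM of *T* was 4.27 in *Eomes* KO and 1.86 in dKO cells on day 3, a log2 ratio of −1.20. On day 2 it was 22.5 and 2.80, a log2 ratio of −3.01. WT cells stood at 43.5 on day 2 and 320 on day 3, and *T* KO cells at 6.44 and 2.98. The *Eomes* KO cells thus carried little *T* RNA on day 3, at a level near that of both lines with the *T* deletion, and far under WT although their *T* gene was not edited. The day 3 values correspond to about 223 and 80 fragments, and an exact Clopper-Pearson interval of 95% on these counts gives a log2 ratio of −1.59 to −0.83. This and the next interval cover counting error alone. *Eomes* stood at 0.264 in *Eomes* KO and 0.333 in dKO cells, about 24 and 25 fragments (log2 0.33, interval −0.53 to 1.21), beside 19.4 in WT cells. The values come from whole genes, and the deletions took only the promoter and first exon, so reads from later exons still count.

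Of 11492 genes examined, 1591 (13.8%) were called on day 3, 704 (6.13%) lower and 887 (7.72%) higher in dKO cells. On day 2 the same lines differed at 116 of 10994 genes (1.06%), 51 (0.464%) lower and 65 (0.591%) higher. WT cells of the *Smad4* line, which carry conditional *Smad4* alleles, and F1G4 WT cells differed at 566 of 11141 genes (5.08%) on day 2. Of these, 390 (3.5%) were lower and 176 (1.58%) higher, which includes the difference between the lines. The spread of log2 ratios, as a robust SD, was 0.629 on day 3, 0.273 on day 2 and 0.339 between the WT lines. On day 1 the WT lines differed at 1257 of 11232 genes (11.2%), with a robust SD of 0.529. The day 2 values of dKO and *Eomes* KO cells thus lay closer together than those of the WT lines on either day, and their day 3 values were nearer to the spread of the WT lines on day 1 (13.8% and 0.629).

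**Figure D1:**
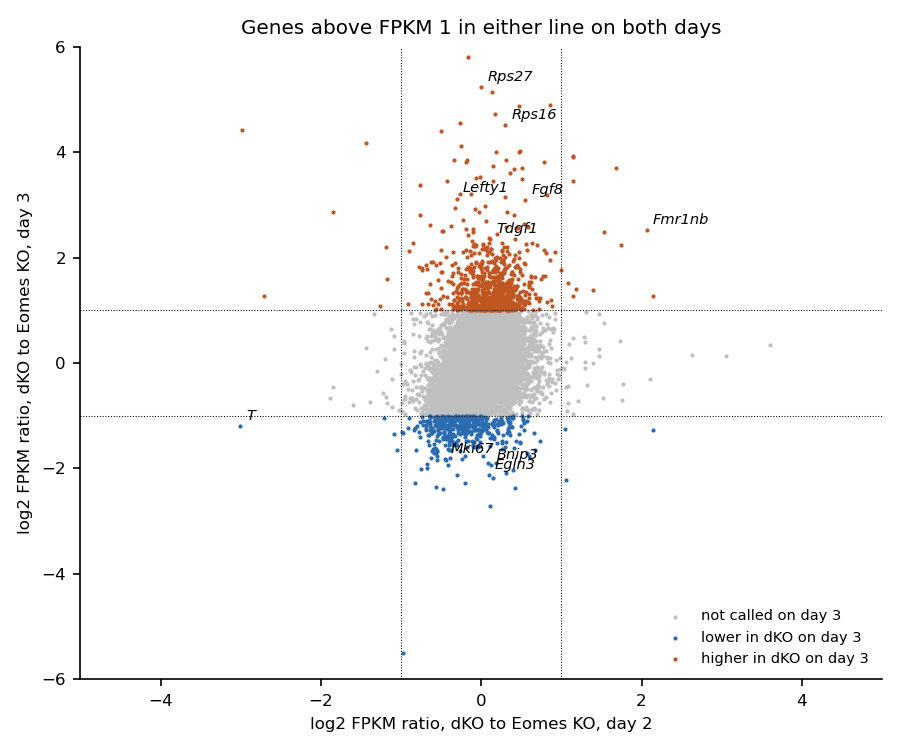
Log2 FPKM ratio of dKO to *Eomes* KO cells on day 2 (horizontal axis) and day 3 (vertical axis), 1 point for each of 10703 genes above FPKM 1 in either line on both days, with dotted lines at −1 and 1. Most genes called on day 3 (blue lower, orange higher in dKO) lie between the dotted lines of day 2, and *T* is among the few lower on both days.

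The calls followed transcript length. Among protein-coding genes of the shortest of 4 equal groups, up to 1992 bases, 443 of 2773 were higher and 72 lower. Of the longest, from 4631 bases, 32 of 2773 were higher and 348 lower. The median log2 ratio went from 0.36 in the shortest to −0.37 in the longest group on day 3, and from 0.17 to −0.17 on day 2. GC content moved the median by less, between −0.02 and 0.02 over its 4 groups. Of 93 RNA genes of at most 300 bases, 76 were higher in dKO cells, with a median log2 ratio of 2.79. Of 11084 protein-coding genes, 645 were lower and 767 higher. With the trends of GC content and length taken out, 471 were lower, 361 of them among the 645, and 602 were higher, 483 of them among the 767. FPKM of all genes summed to 384280 in *Eomes* KO and 504994 in dKO cells. Rescaled to equal sums (TPM), each log2 ratio dropped by 0.39 and 2043 genes were lower and 404 higher, in place of 704 and 887. Medians of chromosomes ran from −0.05 to 0.06, so that no chromosome stood apart.

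**Figure D2:**
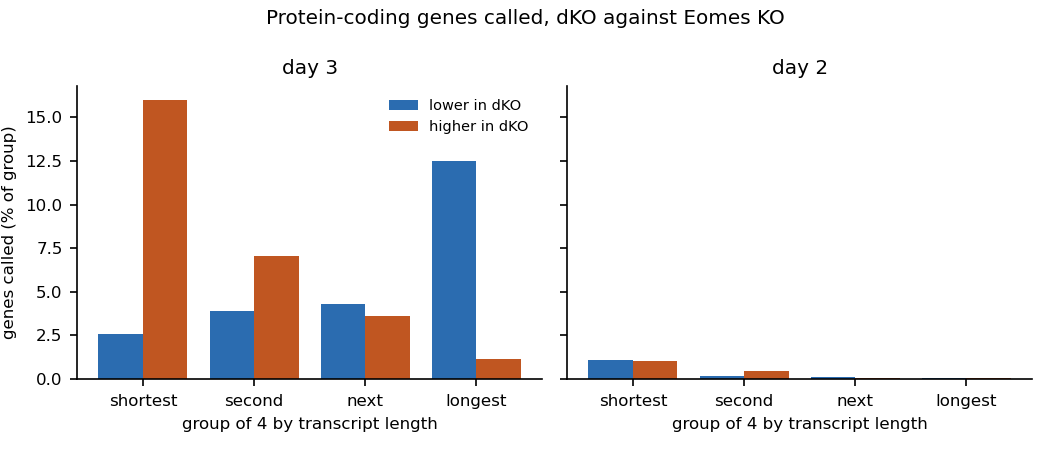
Share of protein-coding genes called lower (blue) and higher (orange) in dKO cells, in 4 equal groups by transcript length, on day 3 (left) and day 2 (right). On day 3, 16.0% of the shortest group were higher and 12.5% of the longest group lower.

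Part of the genes higher in dKO cells were also low in another library. Of the 887 genes higher in dKO cells, 308 (34.7%) were also lower in *T* KO than in WT cells on day 2, and these were 27.4% of the 1124 genes lower there (9.93% of genes examined), while 84 (9.47%) were higher in *T* KO cells, where 5.64% of genes were higher. Of the 704 genes lower in dKO cells, 86 (12.2%) were higher and 24 (3.41%) lower in *T* KO than in WT cells on day 2. The comparison of *T* KO and WT cells shares no column with that of dKO and *Eomes* KO cells. *Rps16*, a protein of the small ribosomal subunit, stood at 12.7 in *Eomes* KO cells on day 3 and 8.27 in *T* KO cells on day 2, and between 246 and 393 in the other 6 columns of the 4 lines on both days. *Psmd7*, a subunit of the proteasome lid, was 25.4 and 13.2 in these columns and between 112 and 184 elsewhere. The part of the libraries in these differences was not tested. Without all genes called in *T* KO against WT cells on day 2, 1089 of 9882 genes were called, 594 lower and 495 higher.

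For the 15 highest and 15 lowest ratios among called protein-coding genes above FPKM 10, values of all day 3 columns were set side by side. Among the 15 highest, 8 were lower than WT and *T* KO only in the *Eomes* KO column, 1 was higher than both only in the dKO column, and 6 were outside on both sides. They included *Rps27*, *Rps16*, *Lefty1*, *Fgf8*, *Mrpl12*, *Cd9*, *Fmr1nb*, *Psmd7*, *Tdgf1*, *Ccdc107*, *Lefty2*, *Dppa5a*, *Txn2* and *Chchd6*, with log2 ratios from 5.24 to 2.25. Of the 15 highest, 8 were lower in *T* KO than in WT cells on day 2 as well. *Rps27* has a close copy, *Rps27rt*, and its log2 ratio of 5.24 was 0.77 for both summed. Among the 15 lowest, from *Adnp* at −4.25 to *2700049A03Rik* at −1.56, 4 were outside the range of WT and *T* KO cells only in the *Eomes* KO column, 3 only in the dKO column and 8 in both. *Adnp* was 13.4 in *Eomes* KO and 0.700 in dKO cells, and 46.9 and 20.9 (log2 −1.16) when summed with its close copy *Gm20716*.

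Counts of listed genes below stand beside the 7.72% of all examined genes that were called higher and the 6.13% called lower. Of the 887 genes called higher, 182 were above FPKM 1 in dKO cells only, and of the 704 called lower 286 in *Eomes* KO cells only. Such a gene was examined only through the line in which it was high, so its call is a description and carries no weight for its list. Besides genes marked in place, this holds for *Pax6*, *Ovol2* and *Amd1*, above FPKM 1 in dKO cells only. It also holds for *Snai2*, *Tfap2a*, *Ascl2*, *Foxd3*, *Dlk1* and *Tsix*, above it in *Eomes* KO cells only.

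Several genes of the Nodal pathway were higher in dKO cells. Of 17 Nodal pathway genes listed, 6 of the 14 examined rose (7.72% over all genes), none fell, 8 were examined and not called and 3 stood at or under FPKM 1 in both lines. The median of the 17 was 0.02, beside 0.01 over all genes examined. Ligands, inhibitors and the coreceptor were among the 6. *Nodal*, the ligand, was 7.95 in *Eomes* KO and 17.2 in dKO cells (log2 1.11). *Gdf3*, a related ligand, was 1.96 and 9.13 (log2 2.22). The inhibitor *Lefty1* was 4.35 and 37.9, an 8.70-fold difference (log2 3.12). *Lefty2* was 5.81 and 29.1 (log2 2.33). The coreceptor *Tdgf1* was 93.6 and 479 (log2 2.36).

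On day 2 none of these genes was called, with *Lefty1* at 43.8 in *Eomes* KO and 35.4 in dKO cells, *Lefty2* at 32.9 and 30.4 and *Tdgf1* at 1061 and 1141. Values of *Eomes* KO cells on day 3 were under those of both lines on day 2, and dKO cells on day 3 were near the day 2 level for *Lefty1* and *Lefty2* but under it for *Nodal*, *Gdf3* and *Tdgf1*. WT cells on day 3 stood at 14.3 for *Lefty1*, 39.3 for *Lefty2*, 533 for *Tdgf1*, 30.8 for *Nodal* and 2.23 for *Gdf3*. For *Lefty2*, *Tdgf1* and *Nodal* the *Eomes* KO value was thus the one farther from WT, whereas for *Gdf3* it was near WT and the dKO value stood apart. *Lefty1* was below WT in *Eomes* KO and above it in dKO cells. In *T* KO cells on day 2 *Lefty1* was 24.8 and *Tdgf1* 655 (17.1 and 569 in WT), so that these were not among the genes low there. Receptors and signal transducers were not called. *Foxh1*, the DNA-binding partner of Smad2, was 23.9 and 25.5, and *Smad2* was 12.0 and 11.7. *Smad3* was 17.0 and 8.93 (log2 −0.93) and the type II receptor gene *Acvr2b* 7.50 and 4.28 (log2 −0.81), both short of the 2-fold limit. *Nodal* was no longer past 2-fold on the TPM scale, nor with the length trend removed (log2 0.94), whereas *Gdf3*, *Lefty1*, *Lefty2* and *Tdgf1* were past it in both.

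**Figure D3:**
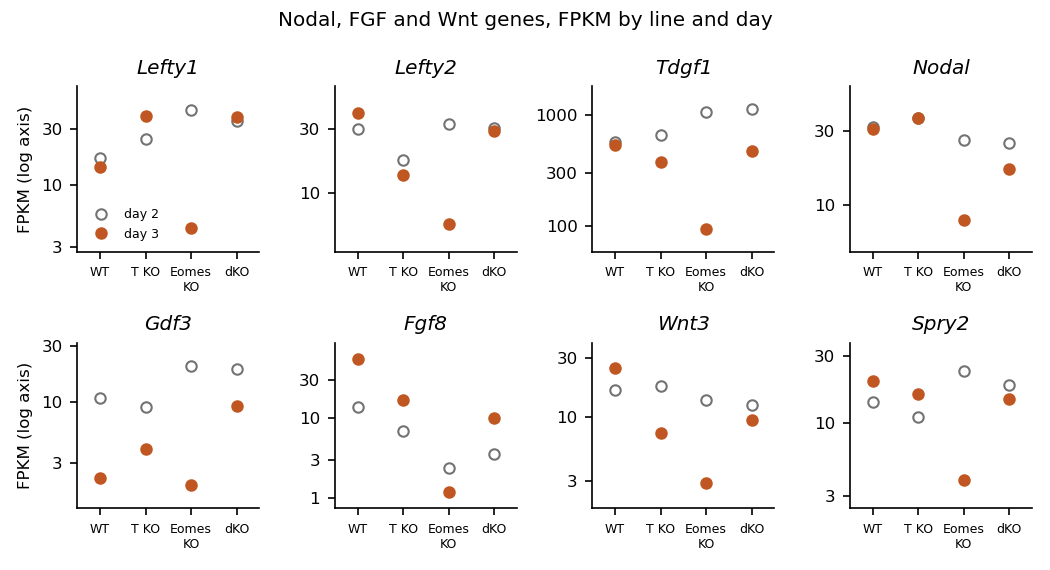
FPKM (log axis) of 8 Nodal, FGF and Wnt pathway genes in WT, *T* KO, *Eomes* KO and dKO cells on day 2 (open circles) and day 3 (filled circles), each point a single deposited value. On day 3 *Eomes* KO cells hold the lowest value in all 8 panels, and dKO cells lie above *Eomes* KO cells in each.

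Of 13 FGF ligand and receptor genes, 4 of the 8 examined rose, none fell and 5 were at or under FPKM 1, with a median of 0.76. Of the 4, *Fgf15* and *Fgf17* were above FPKM 1 in dKO cells only. *Fgf8*, the FGF of the primitive streak, was 1.19 in *Eomes* KO and 10.1 in dKO cells (log2 3.09), beside 55.3 in WT and 16.6 in *T* KO cells. On day 2 it was 2.40 and 3.51. It was thus the gene of this group farthest from the *Eomes* KO value, and still far under WT. *Fgf5*, of the epiblast, was 1.10 and 3.90 (log2 1.83), *Fgf15* was 0.673 and 2.71 (log2 2.01), and *Fgf17* was 0.744 and 2.54 (log2 1.77). The receptors were not called. *Fgfr1* was 49.5 and 29.5 (log2 −0.75) and *Fgfr2* was 19.7 and 12.4 (log2 −0.67).

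Of 10 genes that FGF/ERK signalling induces and that feed back on it, 4 rose, none fell and 6 were not called, with a median of 0.68. Of the 4, *Spry4* was above FPKM 1 in dKO cells only. *Spry2*, an inhibitor of the pathway, was 3.93 and 14.7 (log2 1.90), and *Spry4* was 0.734 and 2.19 (log2 1.57). The ERK phosphatase *Dusp6* was 11.2 and 24.6 (log2 1.13). The transcription factor *Etv4* was 1.36 and 3.02 (log2 1.15). On day 2 *Dusp6* was at 81.8 and 74.0 and *Spry2* at 23.3 and 18.6, so that for these genes dKO cells on day 3 were above *Eomes* KO cells but below both lines a day earlier. On the TPM scale *Dusp6* and *Etv4* were no longer past 2-fold.

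Of 19 Wnt ligand genes, 4 of the 10 examined rose, none fell and 9 were at or under FPKM 1, with a median of 0.57. Of the 4, all except *Wnt3* were above FPKM 1 in dKO cells only. *Wnt3*, the ligand that sets up the streak, was 2.87 in *Eomes* KO and 9.35 in dKO cells (log2 1.71), and 25.0 in WT and 7.40 in *T* KO cells. *Wnt5b*, which acts in cell movement, was 0.731 and 2.57 (log2 1.81), with 17.8 in WT. *Wnt7a* was 0.889 and 5.06 (log2 2.51), and *Wnt11* was 0.482 and 1.99 (log2 2.05). For *Wnt7a* and *Wnt11* the dKO value was above all other columns, with 0.881 and 0.684 in WT cells. Among genes that Wnt signalling itself induces, *Axin2* was 5.03 and 4.05 (log2 −0.31), *Lef1* 3.19 and 2.93, and *Sp5* 0.262 and 0.589, under FPKM 1, so that these were not called. Of 28 Wnt targets and modulators 3 of the 17 examined rose, *Cdx1*, *Cdx2* and the cyclin gene *Ccnd1*, and 1 fell, the secreted Wnt antagonist *Sfrp2* (4.13 and 2.02, log2 −1.03).

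Of 19 *Hox* and *Cdx* genes listed, which pattern the posterior embryo, 13 were at or under FPKM 1 in both lines and the 6 others were called higher. Of the 6, 4 (*Hoxb1*, *Hoxa2*, *Cdx1* and *Cdx2*) were above FPKM 1 in dKO cells only and were examined through that value, so the count says nothing about the list as a whole. *Hoxb2* was 2.74 and 8.20 (log2 1.58). *Hoxb1* was 0.283 and 1.24 (log2 2.13), *Hoxa2* 0.353 and 1.31 (log2 1.89), *Cdx1* 0.515 and 1.39 (log2 1.43) and *Cdx2* 0.420 and 1.88 (log2 2.16). On day 2 none was called, with *Hoxb2* at 4.99 and 6.42. WT cells on day 3 were at 5.95 for *Hoxb2* and 7.30 for *Cdx2*.

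Of genes of the pluripotent state, 4 of the 11 naive genes examined (15 listed) and 3 of 13 core and formative genes rose and none fell. *Dppa2* was above FPKM 1 in dKO cells only. The medians were 0.01 and 0.31. *Dppa5a*, an RNA-binding protein of mESCs, was 49.6 in *Eomes* KO and 240 in dKO cells (log2 2.28), and 821 and 981 a day earlier. *Dppa2*, a chromatin protein, was 0.707 and 2.91 (log2 2.04), *Fbxo15* was 5.11 and 12.8 (log2 1.32) and the transcription factor gene *Klf5* was 4.16 and 8.41 (log2 1.02). *Utf1*, a chromatin factor of pluripotent cells, was 4.02 and 9.34 (log2 1.22), and the other core genes called were *Fgf5* and *Tdgf1*. The central factors lay below the limit of 2-fold, with *Pou5f1* at 242 and 424 (log2 0.81), *Nanog* at 67.7 and 108 (log2 0.68) and *Sox2* at 33.7 and 34.5 (log2 0.03). The dKO value of *Dppa5a*, *Dppa2* and *Utf1* was thus above that of *Eomes* KO cells and well under that of day 2. On the TPM scale *Klf5*, *Fbxo15* and *Utf1* were no longer past 2-fold.

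**Figure D4:**
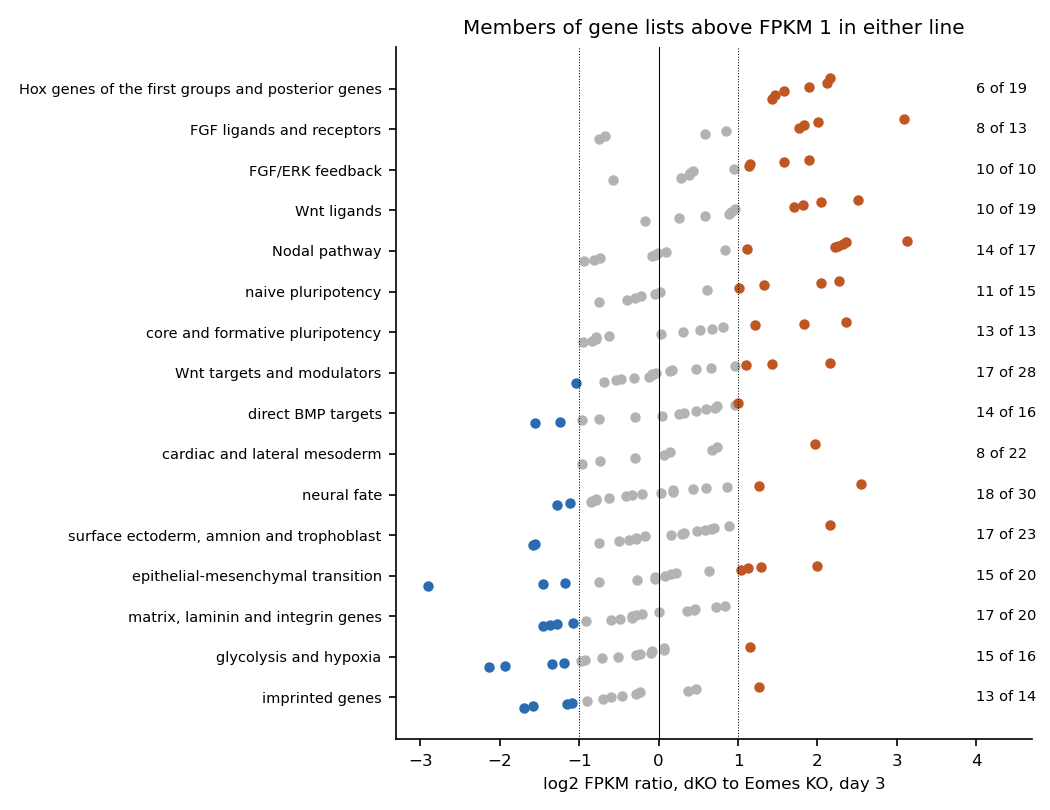
Log2 FPKM ratio of dKO to *Eomes* KO cells on day 3 for the members of 16 gene lists that were above FPKM 1 in either line (1 point per gene, blue lower, orange higher, grey not called), with dotted lines at −1 and 1 and, at the right, how many of the list are drawn. In the lists of *Hox* and *Cdx* genes, FGF, Wnt ligand, Nodal pathway and pluripotency genes the called genes lie to the right, and in those of matrix and of glycolysis and hypoxia genes most lie to the left.

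Some genes that cells induce when oxygen is low were lower in dKO cells. Of 16 genes of glycolysis and the hypoxia response 4 of the 15 examined fell, beside 6.13% of all genes, 1 rose and 1 was at or under FPKM 1, with a median of −0.40. *Egln3*, a prolyl hydroxylase that acts on the hypoxia-inducible factor, was 23.3 in *Eomes* KO and 5.33 in dKO cells (log2 −2.13). *Bnip3*, a protein of mitochondrial turnover, was 71.3 and 18.7 (log2 −1.93). *Ankrd37* was 11.4 and 4.52 (log2 −1.34), and *P4ha1*, a collagen prolyl hydroxylase subunit, was 29.5 and 12.9 (log2 −1.19). On day 2 the lines lay close together, with *Egln3* at 15.9 and 17.0 and *Bnip3* at 51.1 and 55.5. WT and *T* KO cells on day 3 stood at 81.5 and 58.3 for *Bnip3* and at 24.8 and 8.72 for *Egln3*, so that the dKO column was the lowest of the 4 lines for both. *Vegfa*, the angiogenic growth factor, was 15.7 and 7.95 (log2 −0.98), just short of the limit. Of the glycolytic enzyme genes, *Ldha* was 503 and 526, and *Eno1* rose from 221 to 491 (log2 1.15). *Eno1* was also low in *T* KO cells on day 2, at 243, and was not past 2-fold on the TPM scale. With the trends of GC content and length removed, 5 genes of the list were lower and 1 higher.

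The DNA before the starts of *Bnip3* and *Egln3* is shown because both were among the 15 lowest genes and hold the core of the hypoxia response element, ACGTG or its reverse complement CACGT, in capitals. In *Bnip3* (chr7:138909507-138909756, minus strand) the capitals start 108 bases before the annotated start and read the core on both strands, and in *Egln3* (chr12:54203875-54204124, minus strand) they start 229 bases before it. Both are from RefSeq GRCm38.p6 and run 5′ to 3′ in the direction of the gene.
Bnip3 upstream: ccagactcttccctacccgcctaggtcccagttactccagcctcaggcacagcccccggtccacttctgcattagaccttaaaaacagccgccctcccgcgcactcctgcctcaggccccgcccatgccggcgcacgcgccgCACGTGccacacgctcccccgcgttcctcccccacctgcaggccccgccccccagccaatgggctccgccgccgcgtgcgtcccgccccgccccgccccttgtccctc
Egln3 upstream: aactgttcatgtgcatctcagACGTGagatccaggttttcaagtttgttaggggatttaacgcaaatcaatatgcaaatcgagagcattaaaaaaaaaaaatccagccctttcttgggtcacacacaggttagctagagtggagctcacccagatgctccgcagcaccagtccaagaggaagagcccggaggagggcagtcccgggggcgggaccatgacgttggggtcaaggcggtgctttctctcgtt

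In windows of 300 bases, 250 before and 50 after the start, this core stood in 2404 of 8952 promoters of examined genes (26.9%), in 5 of the 13 promoters found for the 15 lowest genes (38.5%) and in 2 of the 9 found for the 15 highest (22.2%). The T-box site TCACACC, or GGTGTGA on the other strand, stood in 286 of the 8952 (3.19%) and the Tcf/Lef core ATCAAAG, or CTTTGAT on the other strand, in 210 (2.35%), and in 0 of the promoters of both groups. The hypoxia core was chosen for the search after the values had been seen.

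The other genes among the 15 lowest had varied functions. *Mki67*, the proliferation marker Ki-67, was 145 in *Eomes* KO and 40.9 in dKO cells (log2 −1.82), and 65.9 in WT and 66.8 in *T* KO cells, so that the *Eomes* KO value was the highest and the dKO value the lowest of the 4. *Zmiz1*, a transcriptional coregulator, was 13.4 and 3.54 (log2 −1.92), beside 3.32 in WT. *H1f0*, a linker histone, was 67.2 and 22.2 (log2 −1.60), and *Dhx9*, an RNA helicase, was 82.0 and 27.2 (log2 −1.59). *Ndrg1*, a stress-responsive gene that is not in the hypoxia list, was 11.5 and 3.39 (log2 −1.77). *Car14*, a carbonic anhydrase, was 34.6 and 11.1 (log2 −1.64). *Lpin1*, *Polr2a*, *Cntrl* and *Mbnl3* had log2 ratios between −1.84 and −1.57. *Akr1b3*, an aldose reductase, was 10.8 and 3.34 (log2 −1.70), but 23.3 and 45.6 (log2 0.97) when summed with its close copy *Gm6644*, so its direction depends on how reads were shared between the copies.

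**Figure D5:**
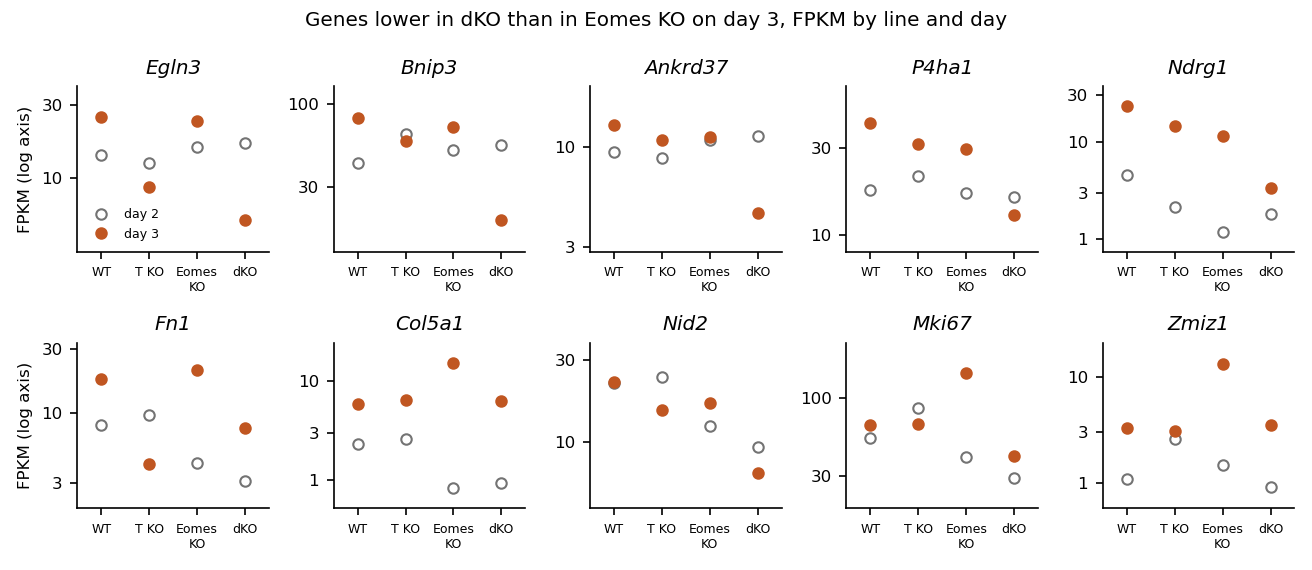
FPKM (log axis) of 10 genes lower in dKO than in *Eomes* KO cells, in WT, *T* KO, *Eomes* KO and dKO cells on day 2 (open circles) and day 3 (filled circles), each point a single deposited value. On day 3 dKO cells hold the lowest value of *Egln3*, *Bnip3*, *Ankrd37*, *P4ha1*, *Ndrg1*, *Nid2* and *Mki67*, whereas *Eomes* KO cells hold the highest of *Fn1*, *Col5a1*, *Mki67* and *Zmiz1*.

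Of 20 matrix, laminin and integrin genes 4 of the 17 examined fell and none rose, with a median of −0.32. The fibronectin gene *Fn1* was 21.1 and 7.73 (log2 −1.45), *Nid2*, of basement membranes, was 16.8 and 6.51 (log2 −1.37), the collagen gene *Col5a1* was 15.2 and 6.24 (log2 −1.28) and the integrin gene *Itgb5* was 35.8 and 17.0 (log2 −1.07). With the length trend removed *Nid2* alone stayed past 2-fold (log2 −1.14). Among 20 genes of epithelial-mesenchymal transition (EMT), the change by which streak cells become mesenchymal, 3 fell and 4 rose, with a median of 0.02. *Snai2*, a repressor that promotes EMT, was 5.63 in *Eomes* KO and 0.756 in dKO cells (log2 −2.90), with 0.883 in WT cells. *Twist1*, of the same role, moved the other way, from 1.06 to 4.20 (log2 1.99). *Crb2* and *Fn1* also fell, and the epithelial genes *Crb3*, *Ovol2* and *Rab25* rose, with log2 ratios of 1.04, 1.29 and 1.12. None of these 3 was past 2-fold on the TPM scale (0.64, 0.89 and 0.73), nor were *Crb3*, *Rab25* and *Crb2* with the length trend removed (0.63, 0.63 and −0.74). *Cdh1*, E-cadherin, was 129 and 201 (log2 0.63), and *Cdh2*, N-cadherin, was at or under FPKM 1 in both.

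BMP signalling is the signal given in the medium. Of 16 direct BMP targets 2 fell and 1 rose, with a median of 0.27. *Smad6*, an inhibitor of the pathway, was 8.67 and 3.66 (log2 −1.24), *Tfap2a* 1.43 and 0.488 (log2 −1.56), and *Id1* 19.5 and 39.0 (log2 1.00), at the limit itself. Of 16 BMP ligands, receptors and antagonists, the receptor gene *Bmpr2* fell (10.2 and 5.03, log2 −1.02) and the antagonists *Nog* (1.31 and 2.99, log2 1.20) and *Fst* (2.25 and 7.95, log2 1.82) rose, with a median of 0.08. The *Fst* level of WT cells was 174, that of *T* KO cells 3.77. *Id1*, *Nog* and *Bmpr2* were not past 2-fold with the length trend removed.

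Some defining genes of nascent mesoderm were at or near 0 in both lines. *Mesp1* and *Msgn1*, of nascent and paraxial mesoderm, were listed at 0 in both, beside 5.45 and 21.6 in WT cells, and *Mixl1*, of the streak, was 0.0171 and 0.166 beside 15.6. The labels name the cells cardiac mesoderm progenitors, and these 3 transcripts were thus absent or nearly so. Of 18 transcription factor genes of the streak and nascent mesoderm, 3 rose (*Cdx1* and *Cdx2* among them), none fell and 12 were at or under FPKM 1, with a median of 0.59. Of 17 T-box genes only *T* was called. Of 10 genes the study names as activated by T on day 3, 9 were at or under FPKM 1 in both lines and 1, *Fgf8*, rose. Of 9 it names as needing both factors, 6 were at or under FPKM 1 in both lines, *T* fell and *Fgf8* and *Wnt3* rose. The medians of 0.54 and 0.62 are over all members, most of them at or under FPKM 1. The study chose both lists on samples of this series, the first with *T* KO and WT cells and the second with *Eomes* KO and dKO cells as well. Neither list is used here as evidence of a direction. In 22 cardiac and lateral mesoderm genes, 8 of them examined, *Tnnt2*, a sarcomere gene, was called (0.297 and 1.16, log2 1.97), with a median of 0.00. *Tnnt2* was above FPKM 1 in dKO cells only. *Hand1*, of lateral and extraembryonic mesoderm, was 60.3 and 31.0 (log2 −0.96), above the 20.5 of WT cells in both lines. In 18 paraxial mesoderm genes, 5 of them examined, *Pcdh8* (0.157 and 1.62, log2 3.37) and *Tcf15* (0.547 and 1.79, log2 1.71) rose, with a median of −0.02. *Pcdh8* and *Tcf15* were above FPKM 1 in dKO cells only, so only a higher call was possible. Of 3 Apelin pathway genes, *Apela*, a peptide ligand of early mesendoderm, rose from 44.4 to 95.6 (log2 1.11), with a median of 0.14, but was not past 2-fold with the length trend removed (log2 0.64).

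Marker lists of other cell types gave few calls. Of 11 definitive endoderm genes *Trh* rose, from 81.4 to 299 (log2 1.88), with a median of 0.16, while the endoderm factor *Sox17* was at 0.0812 and 0.0723. Of 16 blood and endothelial genes none was called, 14 were at or under FPKM 1 and the median was 0.00, with *Pecam1* at 8.01 and 6.38 and *Gata2* with a log2 ratio of −0.75. Of 30 neural genes 2 rose and 2 fell, with a median of 0.00. *Pax6*, of the neural tube and eye, was 0.661 and 3.88 (log2 2.55), and *Tubb3*, a neuronal tubulin, 9.15 and 22.0 (log2 1.27), whereas *Irx5* and *Foxd3* fell with log2 ratios of −1.27 and −1.12. On day 2 *Pax6* was 4.58 and 4.27, while WT and *T* KO cells on day 3 stood at 0.0469 and 0.139, so that dKO cells kept the day 2 level and *Eomes* KO cells lay between them and the WT value. Of 23 genes of surface ectoderm, amnion and trophoblast *Tfap2a* and *Ascl2* (2.65 and 0.885, log2 −1.58) fell and *Cdx2* rose, with a median of 0.00. Of 12 extraembryonic endoderm markers none was called and 10 were at or under FPKM 1, with *Dab2* at 2.42 and 1.75 and *Ttr* at 1.06 and 1.21.

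Fibroblasts were checked because mESCs are grown on feeder cells. Of 12 fibroblast markers 2 rose and 2 fell, with a median of −0.30. The smooth muscle genes *Tagln* (286 and 901, log2 1.65) and *Acta2* (34.3 and 77.1, log2 1.17) rose, and *Pdgfrb* (5.56 and 1.57, log2 −1.82) and *Fbln2* (4.15 and 1.62, log2 −1.35) fell. *Acta2* was not past 2-fold on the TPM scale or with the length trend removed. The collagen genes *Col1a1* (0.906 and 0.505) and *Col1a2* (0.826 and 0.410), which fibroblasts make in quantity, were at or under FPKM 1 in both lines.

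Cells whose *Eomes* gene was not edited were also compared, as *T* KO against WT on day 3, which shares no column with the dKO and *Eomes* KO pair. *Eomes* RNA was nonetheless lower in *T* KO cells, at 4.78 beside 19.4 in WT cells. *T* RNA was 2.98 and 320 there, against 1.86 in dKO and 4.27 in *Eomes* KO cells. The amount of *T* RNA lost thus differed widely between the comparisons. In *T* KO against WT cells 686 of 11229 genes (6.11%) were called, 449 (4.0%) lower and 237 (2.11%) higher. Of the 449, 165 were at or under FPKM 1 in both lines of the other pair, 203 were examined there and not called, 31 were lower in both comparisons and 50 were higher in dKO cells. A further 52 genes were higher in both and 27 were lower in dKO but higher in *T* KO cells. Genes called in both thus went the same way in 83 cases and opposite ways in 77. The 83 and 77 are 5.22% and 4.84% of the 1591 genes called here, and 12.1% and 11.2% of the 686. *Fgf8*, *Lefty2*, *Wnt3* and *Cdx2* were among those lower in *T* KO than in WT cells but higher in dKO than in *Eomes* KO cells. The difference between the comparisons was not tested, for want of replicates.

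Few genes differed between dKO and *Eomes* KO cells on both days. Lower on both were 5 genes, *T*, the matrix gene *Fbln2*, *1700024F13Rik*, *Gm35612* and *Tex13b*. Higher on both were 13, of which 7 were small nucleolar RNAs and 4 protein-coding. *Fmr1nb* was the protein-coding gene with the highest level among them, at 8.05 and 33.7 on day 2 and 5.40 and 31.1 on day 3, so that its difference was present on both days and WT (4.61) and *T* KO cells (7.02) lay near *Eomes* KO cells. A further 3 genes were lower on day 3 and higher on day 2, and 10 the reverse.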

How the data were processed

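Strand-specific total RNA libraries (ScriptSeq) were paired-end sequenced. Per the study's methods and the submitters' processing notes, the deposited FPKM values came from Cuffdiff 2.2.1, run by the authors on HISAT2 2.1.0 alignments to mm10 with RefSeq splice sites, after quality control (FastQC), adapter removal (cutadapt 2.9) and sorting (SAMtools 1.9). Each KO table holds a KO and a WT column. The labels give 1 sample per KO line and day, but the study describes averaged replicates, so how many libraries a column pools is unclear.

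KO values were divided by the median ratio of their table's WT column to the WT time course over genes above FPKM 1 (1.0448 for *Eomes* KO and 1.0394 for dKO cells on day 3). Genes above FPKM 1 in either column were examined, and a 2-fold ratio was called. With 1 column per group no test was run, no SD exists, and p-values are not given. List medians used log2(FPKM + 0.1). Fragments were estimated from the smallest step of FPKM times transcript length, and the intervals on them are Clopper-Pearson intervals at 95% that cover counting error only. The FPKM tables hold no counts, so fragment numbers are known only through these steps, and library depth is not settled by them. RefSeq (GRCm38.p6) gave positions for 24448 of 24538 genes. Transcript length and GC content were those of the longest GENCODE transcript, a protein-coding one where present, with lengths for 24176 genes. Close copies were found with blastn 2.17.0 (identity of at least 95% over at least 50% of the transcript).

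Named genes were *Eomes* and *T*, the 15 highest and 15 lowest ratios among called protein-coding genes reaching FPKM 10, and called members of 36 gene lists (examined members for lists with no call). The members and lists were chosen with earlier results of these data known. Scripts ran in Python 3.11.15 (pandas 2.3.3 and numpy 2.4.6 for tables, scipy 1.17.1 for intervals, matplotlib 3.10.9 for plots), and the calling steps were tested on simulated data. Alternatives were other scalings, pseudocounts, expression and fold limits, summed copies and removal of length trends. Some genes that met the naming rule are not reported here.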

Additional observations from a re-analysis of the deposited data

Results flagged for a closer look

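For 21 of the named genes, dKO against *Eomes* KO cells and *T* KO against WT cells gave opposite calls on day 3. The first pair is termed without *Eomes* and the second with *Eomes*, although *Eomes* RNA was 4.78 in *T* KO and 19.4 in WT cells. The *T* deletion, the clone and the library cannot be told apart in either pair. Over all genes called in both comparisons, 83 went the same way and 77 opposite ways. *Cdx1*, *Cdx2*, *Wnt5b*, *Hoxb1*, *Tnnt2*, *Isg15*, *Tap2* and *Amd1* passed the FPKM minimum in dKO cells only, so only a higher call was possible. *Foxd3* and *Ascl2* passed it in *Eomes* KO cells only, so only a lower call was possible. *Fgf8* and *Wnt3* are also in lists that the study chose on samples of this series. The values below are the log2 ratio without *Eomes* minus that with *Eomes*, on log2(FPKM + 0.1). With single columns the difference was not tested. The ratio, not the level, was higher without *Eomes* for the signalling genes *Fgf8* by 4.71, *Lefty2* by 3.84, *Wnt3* by 3.42, *Wnt5b* by 4.18, *Fst* by 7.27 and *Nog* by 2.09. Likewise the transcription factor genes *Cdx1* differed by 2.28, *Cdx2* by 5.57, *Hoxb1* by 4.38, *Hoxb2* by 3.28 and *Twist1* by 3.36. The sarcomere gene *Tnnt2* differed by 3.72. Genes of the interferon response and antigen presentation, *Isg15*, *Psmb9* and *Tap2*, differed by 7.97, 3.17 and 3.92. These were also lower in *T* KO than in WT cells on day 2. *Amd1*, of polyamine synthesis, differed by 7.93, and it shares reads with its close copy *Amd2*. The ratio was lower without *Eomes* for *Irx5* at −3.67, *Foxd3* at −2.56, *Ascl2* at −3.02, *Igf2* at −2.15 and *Akr1b3* at −3.38, whose direction depends on its copy *Gm6644*.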

How the results depend on the processing

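No paired analysis was possible because each group is a single column and no result comes from a test, and for the same reason no replicate could be left out. The 1591 genes called on day 3 became 2447 on the TPM scale (2043 lower, 404 higher), 856 with a pseudocount of 1, 5051 with no FPKM minimum, 921 above FPKM 5, 212 at a 4-fold limit (58 lower, 154 higher) and 523 of 5544 within the middle transcript lengths, an alternative chosen after seeing the data. Of the genes called, 44.2% were lower, against 83.5% on the TPM scale, 77.5% when scaled over protein-coding genes and 79.6% on the TPM scale without short RNAs and mitochondrial genes. Calls within the gene lists went from 84 to 162 with no minimum and 50 above FPKM 5, and on the TPM scale from 26 lower and 58 higher to 64 lower and 36 higher. The 30 highest and lowest genes stayed past 2-fold in the same direction under each scaling, pseudocount, minimum and trend removal tried. They had been picked for the most extreme ratios, which largely fixes this outcome. Summed with their close copies, *Rps27* was no longer past 2-fold (log2 0.77) and *Akr1b3* changed sign (log2 0.97). On day 2 the 116 calls became 34 with a pseudocount of 1, 2887 with no minimum and 21 above FPKM 5. The 77 genes with opposite calls in the comparisons with and without the *Eomes* deletion became 28 with a pseudocount of 1. The 566 calls between WT lines on day 2 became 1257 on day 1. Of 106 named genes called, 22 were no longer past 2-fold on the TPM scale and 28 (*T* among them) with a pseudocount of 1. The same held for 34 above FPKM 5 and 19 with the length trend removed. None changed direction under these settings. Lost on the TPM scale were, among others, *Ccnd1*, *Id1*, *Nog*, *Apela*, *Tubb3*, *Ddx4*, *Azin1*, *Oaz1*, *Ctgf*, *Snrpn* and *Acta2*. With the length trend removed *Utf1*, *Notch1*, *Oaz1*, *Ctgf* and *Acta2* were among those lost. List medians changed sign for 12 of 36 lists on the TPM scale. The cause of these shifts was not tested. The robust SD of log2 ratios on day 3 was 0.874 in the least expressed group of genes, near FPKM 1, and 0.47 in the most expressed. On day 2 it was 0.421 and 0.186. The part of depth in this spread was not tested.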

Other observations

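Over all genes examined 7.72% were called higher and 6.13% lower, and the shares of several lists below are near these. Of 14 imprinted genes (13 examined) 4 fell and 1 rose in dKO cells, with a median log2 ratio of −0.52. *Igf2*, a fetal growth factor, was 404 in *Eomes* KO and 190 in dKO cells (log2 −1.09), beside 5.57 and 7.98 on day 2. *Peg10* was 251 and 113 (log2 −1.15), the long non-coding RNA *Meg3* 21.9 and 7.32 (log2 −1.58) and *Dlk1*, a Notch-like ligand, 1.08 and 0.335 (log2 −1.69). *Snrpn*, a splicing protein, rose from 33.7 to 80.9 (log2 1.26). *Igf2* and *Peg10* were not past 2-fold with the length trend removed.

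Of 8 genes of arginase and polyamine synthesis 3 rose, with a median of 0.57. *Oaz1*, the antizyme, was 25.5 and 64.3 (log2 1.33) and *Azin1*, its inhibitor, 27.7 and 58.4 (log2 1.08). *Amd1* was 0.0138 and 8.68, but 19.8 and 36.2 (log2 0.87) when summed with its copy *Amd2*. Of 16 interferon response genes 3 rose, with a median of 0.25. *Isg15* was listed at 0 in *Eomes* KO and 1.70 in dKO cells, *Psmb9*, of the immunoproteasome, was 1.27 and 3.95, and *Tap2*, a peptide transporter, 0.646 and 3.26. *Isg15* and *Tap2* were above FPKM 1 in dKO cells only. All 3 were also low in *T* KO cells on day 2, at 0, 0.797 and 0.280, beside 1.19, 3.44 and 2.30 in WT cells. Of 17 immediate early genes (12 examined) *Ier2* (5.44 and 19.9) and *Ctgf* (7.88 and 16.4) rose, with a median of 0.03. Of 15 genes of the Atf4 response (13 examined) *Atf5* rose (1.80 and 3.60), with a median of 0.16, and was not past 2-fold unscaled, on the TPM scale or with the length trend removed. Of 13 primordial germ cell genes (9 examined) *Ddx4*, an RNA helicase, rose (3.45 and 7.44), with a median of −0.08. Of 15 Notch pathway genes (10 examined) the receptor gene *Notch1* fell (3.84 and 1.71), with a median of −0.05. Of 14 retinoic acid genes none was called, with a median of 0.41, *Crabp2* at 38.6 and 54.7 and *Rarg* at 17.0 and 12.9. Of 8 genes checked on the X and Y chromosomes *Tsix*, the antisense partner of the X-inactivation RNA, fell (1.17 and 0.342), with a median of −0.05.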
